A study of Homo sapiens with 8 samples.

Results

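The 13 genes described here are the messenger RNA genes of the human mitochondrial chromosome, chosen by names that start with MT-. They are 13 of the 35805 genes listed and 13 of the 14665 genes tested, since all of them passed the minimum of a mean log2 value of 0. The mitochondrial chromosome also carries 22 transfer RNA genes and 2 ribosomal RNA genes in GENCODE release 29, which were not analysed here. Values came from K562 cells, a human chronic myeloid leukaemia line with erythroid features, engineered to carry dCas9-KRAB, a Cas9 without cutting activity joined to a repressor domain that silences transcription where a guide RNA places it (CRISPR interference). The 8 RNA libraries fall into 4 groups of 2, and every group carries dCas9-KRAB. Cells of the sg1-IRF2 and sg2-IRF2 groups had received 1 guide each against IRF2, a transcription factor of the interferon regulatory factor family. Cells of the sgAAVS1 group had received a guide to the AAVS1 site as a negative control, and untransduced cells had received no guide. RNA of the cells with a guide was taken 7 days after transduction. It was depleted of ribosomal RNA and sequenced from directional libraries. Nothing in the labels tells if a group's 2 libraries are separate cultures, and p-values therefore measure the spread between these libraries only, which may be technical.

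Mitochondrial DNA is copied and read inside mitochondria by machinery that is itself encoded in the nucleus. Both of its strands are transcribed as long RNAs that span many genes, and these are cut into single messengers, largely by excising the transfer RNAs that lie between them. All 13 messengers encode subunits of the respiratory chain and the ATP synthase, where they are joined by many more subunits made from nuclear genes. MT-ND1 to MT-ND6 and MT-ND4L belong to complex I, which takes electrons from NADH, and MT-CYB belongs to complex III, which passes them on to cytochrome c. MT-CO1, MT-CO2 and MT-CO3 form the core of complex IV, which hands electrons to oxygen, and MT-ATP6 and MT-ATP8 belong to the ATP synthase. Complex II has no mitochondrially encoded subunit.

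The gene map decides how far these 13 counts are separate measurements. All 13 genes had the same span in the deposited table (hg38) and in GENCODE release 29 (GRCh38). In that map 12 genes lie on the plus strand and MT-ND6 alone lies on the minus strand, and 12 genes have a transfer RNA gene on either strand within 3 bases of an end. In a pair of overlaps, each joins genes that are carried on 1 shared messenger. MT-ATP8 (MT:8366-8572, 207 bases) shares its last 46 bases, 22.2% of its length, with MT-ATP6 (MT:8527-9207, 681 bases). MT-ND4L (MT:10470-10766, 297 bases) shares its last 7 bases with MT-ND4 (MT:10760-12137, 1378 bases). MT-ATP6 also shares 1 base with MT-CO3 (MT:9207-9990, 784 bases). Reads in a shared stretch can belong to either gene, and the sources used here do not give how they were assigned. The sequences of both overlaps are shown 5′ to 3′ from the GENCODE 29 transcripts (GRCh38, plus strand), with the shared bases in capitals.

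MT-ATP8: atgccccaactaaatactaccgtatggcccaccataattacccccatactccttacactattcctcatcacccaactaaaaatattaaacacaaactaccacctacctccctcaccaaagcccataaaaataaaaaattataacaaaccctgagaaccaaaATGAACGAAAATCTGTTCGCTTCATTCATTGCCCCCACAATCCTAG
MT-ATP6, first 60 bases: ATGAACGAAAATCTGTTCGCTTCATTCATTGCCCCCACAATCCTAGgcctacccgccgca
MT-ND4L, last 60 bases: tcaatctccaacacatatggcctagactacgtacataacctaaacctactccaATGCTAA
MT-ND4, first 60 bases: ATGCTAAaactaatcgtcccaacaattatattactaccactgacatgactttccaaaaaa

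The 3′ ends show where excised transfer RNAs leave the messenger without a whole stop codon. In 6 of the 13 genes the annotated sequence ended with bases past the last full codon, TA in MT-ND1 and a single T in the other 5, and it is the poly(A) tail added later that completes such codons to UAA. The last 30 bases of these 6 genes are shown with those bases in capitals.

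MT-ND1, last 30 bases: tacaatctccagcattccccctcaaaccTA
MT-ND2, last 30 bases: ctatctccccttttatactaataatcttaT
MT-CO3, last 30 bases: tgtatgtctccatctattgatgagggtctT
MT-ND3, last 30 bases: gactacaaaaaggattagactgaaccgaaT
MT-ND4, last 30 bases: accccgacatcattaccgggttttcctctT
MT-CYB, last 30 bases: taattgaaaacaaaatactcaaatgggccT

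MT-ND6 differed from the other 12 genes in base composition. Its sequence held 35.6% G and 7.05% C, whereas the other 12 held 6.28% (MT-ATP8) to 16.2% (MT-CO1) G and 29.5% to 36.0% C. MT-CYB, its neighbour on the opposite strand, held 34.3% C. The first 90 bases of both genes are shown, each on its own strand (MT-ND6 at MT:14584-14673, minus strand; MT-CYB at MT:14747-14836, plus strand), with every G in capitals.

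MT-ND6, first 90 bases: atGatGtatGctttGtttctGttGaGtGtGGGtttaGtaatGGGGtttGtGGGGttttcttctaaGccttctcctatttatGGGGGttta
MT-CYB, first 90 bases: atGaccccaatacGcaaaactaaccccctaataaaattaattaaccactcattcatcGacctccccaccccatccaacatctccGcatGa

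The libraries held 5248359 to 6738348 reads over all listed genes, recovered as whole reads from the deposited values. IRF2 itself, at 4:184387713-184474580, had 4 and 8 reads in sg1-IRF2 cells, 22 and 21 in sg2-IRF2 cells, 196 and 291 in sgAAVS1 cells, and 271 and 268 in untransduced cells. Its log2 difference, both guides against sgAAVS1, was -4.49 ± 0.18 (standard error of the limma fit, adjusted p = 1.7e-12). All 12 erythroid marker genes were tested and summed to 7533 to 8906 reads a library. Of markers of other cell types, 2 of 5 lymphoid genes were tested (summed 231 to 294 reads, MS4A1 without a read), 2 of 4 monocyte genes (627 to 862 reads) and 6 of 8 epithelial and mesenchymal genes (3423 to 4043 reads, COL3A1 without a read).

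Together the 13 genes took 98092 reads over the 8 libraries. They had 12018 and 12956 reads in sg1-IRF2 cells, 12803 and 12028 in sg2-IRF2 cells, 11395 and 12435 in sgAAVS1 cells, and 12921 and 11536 in untransduced cells. As a share of all reads this was 0.209% and 0.203% in sg1-IRF2 cells, 0.199% and 0.196% in sg2-IRF2 cells, 0.217% and 0.185% in sgAAVS1 cells, and 0.205% and 0.183% in untransduced cells. The highest and the lowest share lay in the control groups, and the shares of both IRF2 guides lay between the 2 sgAAVS1 libraries. The Wilson 95% interval was 0.213% to 0.221% in sgAAVS1 replicate 1 and 0.181% to 0.188% in sgAAVS1 replicate 2, so that counting error alone does not span the gap between these replicates. These intervals hold for counting error alone, because reads were counted without molecular identifiers. In RNA from whole cultures, fewer cells with a transcript and less of it per cell cannot be told apart.

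Set against their lengths, the 13 genes were close to each other, at 0.854 (MT-ND3) to 1.32 (MT-CO2 and MT-CO3) reads per base on average over the 8 libraries, a 1.54-fold range. The reads themselves spanned 6.87-fold. At this density reads followed library size only in part (slopes of 0.29 to 0.86, described further on). The values per base thus describe reads and set no ratio between messengers in RNA. Among complex IV genes, MT-CO2 had 1.32, MT-CO3 1.32 and MT-CO1 1.13 reads per base. MT-CO2 and MT-CO3 held the top 2 places in all 8 libraries, in either order. The ATP synthase genes MT-ATP8 and MT-ATP6 had 1.23 and 1.17 reads per base, with the shared stretch noted above, and shared places 3 to 7 with MT-ND4, MT-ND4L and MT-CO1.

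Complex I genes ran from the lowest reads per base to just under those of MT-CO2 and MT-CO3. MT-ND4 stood highest among them at 1.26 reads per base, followed by MT-ND4L at 1.10, MT-ND2 at 1.02, MT-ND6 at 0.965, MT-ND1 at 0.930, MT-ND5 at 0.880 and MT-ND3 at 0.854. MT-ND5 and MT-ND3 took the last 2 places in all 8 libraries, also in either order. The gene of complex III, MT-CYB, had 0.975 reads per base. MT-CO1 was always the sixth and MT-ND2 always the eighth of 13. Neighbours whose order turned between libraries, such as MT-CO2 and MT-CO3, do not differ beyond their spread.

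**Figure D1:**
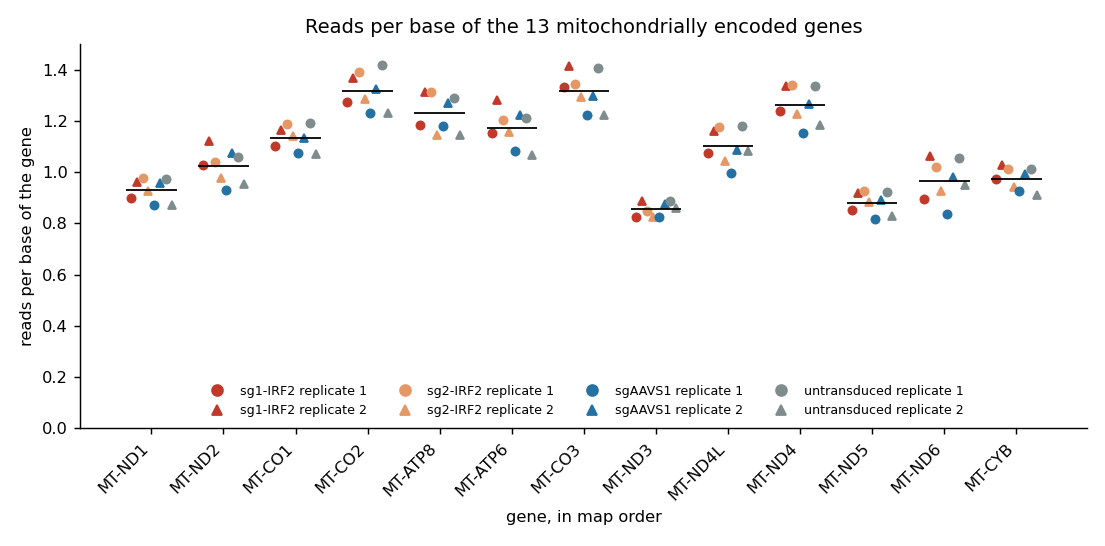
Reads per base of each of the 13 mitochondrially encoded genes (vertical axis) in map order (horizontal axis), with 1 point per library and the mean of 8 libraries as a line. The genes keep nearly the same order in every library, from MT-CO2 and MT-CO3 at 1.32 down to MT-ND3 at 0.854.

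The split of reads among the 13 genes was almost the same in every library. MT-CO1 took 13.8% to 14.6% of the reads on the 13 genes, MT-ND4 13.9% to 14.4%, MT-ND5 12.9% to 13.3% and MT-ATP8 1.97% to 2.14%. Across the 13 genes and 8 libraries the chi-square was 0.417 per degree of freedom (84 degrees of freedom), where counting noise alone gives 1. The spread was thus below that of independent reads, and its cause was not tested. Independent reads are therefore no fitting yardstick for these counts, and the shares are given as a description. Of the 13 genes 5 overlap another of them, by 46, 7 and 1 bases of 11395 bases in all. Reads of the 13 genes followed library size only in part, with a median slope of 0.43 (described further on).

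What did vary was the level of all 13 genes at once, and it varied between replicates. Levels are given from here on as log2 values with the library medians aligned over the tested genes, on the authors' scale. The median of the 13 genes was 7.45 and 7.37 in sg1-IRF2 cells, 7.39 and 7.38 in sg2-IRF2 cells, 7.53 and 7.27 in sgAAVS1 cells, and 7.45 and 7.24 in untransduced cells. In sgAAVS1 cells all 13 genes were higher in replicate 1 than in replicate 2, by a median of 0.26 (0.16 to 0.31), while 49.4% of all tested genes were. In untransduced cells all 13 were likewise higher in replicate 1, by a median of 0.17 (0.06 to 0.22), beside 52.8% of all tested genes. The replicates of the IRF2 guides lay closer together, with median gaps of 0.08 in sg1-IRF2 cells and -0.01 in sg2-IRF2 cells. MT-ND6 departed from the other genes in sg1-IRF2 cells, where it alone was lower in replicate 1 than in replicate 2, by 0.06 on the log2 scale.

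**Figure D2:**
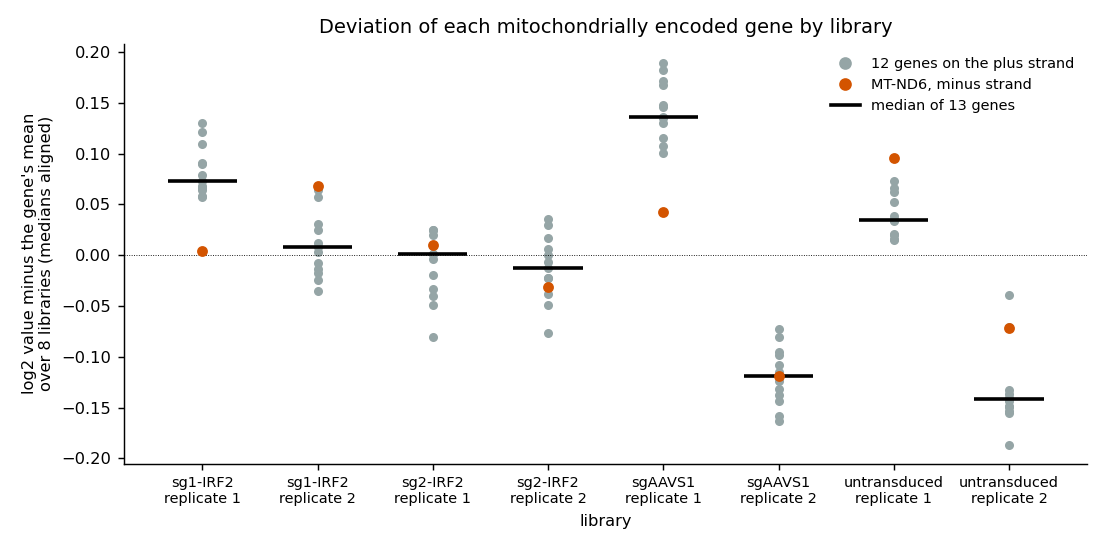
Aligned log2 value of each gene minus its mean over the 8 libraries (vertical axis), by library (horizontal axis), with the 12 plus-strand genes in grey, MT-ND6 in orange and the median of 13 genes as a bar. Most genes shift together, and among the 4 groups the replicates lie furthest apart in sgAAVS1 and untransduced cells, with median gaps of 0.26 and 0.17.

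None of the 13 genes was called when IRF2 was silenced. Both guides together against sgAAVS1 gave log2 differences from -0.06 (MT-ND3) to 0.05 (MT-ND6), with a median of 0.01 beside 0.00 over all tested genes. Of the 13 differences 9 were above 0 (4 without aligned medians, with a median of -0.01 beside -0.02 over all tested genes). None of the 13 passed the test (limma, adjusted p = 0.836 to 0.987), and none had an unadjusted p under 0.05, beside 11.1% of all tested genes. Voom on the recovered reads called none of them in any of the 6 comparisons. Over all tested genes 208 were called, or 1.42%, so that a count of 0 among 13 is near the background. The 95% intervals of the 13 differences ran from -0.20 to 0.19 at the widest. These intervals hold for the deposited values, and reads of the 13 genes followed library size only in part (a median slope of 0.43, described further on), so that they set no bound on a change in RNA.

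The genes at the ends of this range show how the groups overlap. MT-ND3, a small core subunit of complex I, had aligned log2 values of 5.84 and 5.76 in sg1-IRF2 cells, 5.70 and 5.75 in sg2-IRF2 cells, and 5.97 and 5.67 in sgAAVS1 cells. All 4 IRF2 libraries lay between the sgAAVS1 replicates, and the difference was -0.06 ± 0.07 (standard error, adjusted p = 0.857, limma). MT-ND6, the complex I subunit from the other strand, had 6.55 and 6.62 in sg1-IRF2 cells, 6.56 and 6.52 in sg2-IRF2 cells, and 6.59 and 6.43 in sgAAVS1 cells, a difference of 0.05 ± 0.06 (adjusted p = 0.836, limma). Here 1 sg1-IRF2 library lay above both sgAAVS1 libraries and the others lay between them. MT-CO1, the catalytic subunit of complex IV, had 8.41 and 8.31 in sg1-IRF2 cells, 8.34 and 8.38 in sg2-IRF2 cells, and 8.51 and 8.20 in sgAAVS1 cells. Its group means of 8.36 ± 0.08, 8.36 ± 0.03 and 8.35 ± 0.22 (SD, n = 2 each) differed by less than the spread of the sgAAVS1 replicates.

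Each guide taken alone also gave no call. For sg1-IRF2 against sgAAVS1 the differences had a median of 0.03 and reached 0.09 ± 0.08 in MT-CO3 (95% interval -0.07 to 0.25), a core subunit of complex IV. For sg2-IRF2 against sgAAVS1 the median was -0.01 and the lowest value was -0.09 ± 0.08 in MT-ND3 (adjusted p = 0.643, limma). None of the 13 genes was called for either guide, beside 0.791% of tested genes called for sg1-IRF2 and 3.41% for sg2-IRF2. None of the 13 had an unadjusted p under 0.05 either, beside 6.44% and 17.0% of all tested genes. These outcomes rest on having both sgAAVS1 libraries. Without sgAAVS1 replicate 1, MT-CO3 was called higher for both guides together (0.19, adjusted p = 0.0329) and for sg1-IRF2 (0.24, adjusted p = 0.0200), beside 3.22% and 1.23% of tested genes called in those fits. Without sgAAVS1 replicate 2, MT-CYB was called lower for sg2-IRF2 (-0.19, adjusted p = 0.0312, limma throughout), beside 5.86% of tested genes. The median over the 13 genes, both guides against sgAAVS1, was 0.13 in the first case and -0.12 in the second.

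The guides themselves differed most in MT-ND2, a complex I subunit. It had 7.75 and 7.69 in sg1-IRF2 cells and 7.58 and 7.59 in sg2-IRF2 cells. The values were 7.73 and 7.55 in sgAAVS1 cells and 7.64 and 7.48 in untransduced cells. The difference of sg1-IRF2 and sg2-IRF2 was 0.14 ± 0.06 (95% interval 0.01 to 0.26). Its unadjusted p was 0.0341 and its adjusted p was 0.314 (limma), so it failed the correction. An unadjusted p under 0.05 was reached by 1 of the 13 genes, beside 13.6% of all tested genes. All 13 differences of this comparison were above 0, with a median of 0.06 beside 0.00 over all tested genes. None was called, beside 1.58% of tested genes. With medians aligned over all listed genes 1 of 13 was above 0, with a median of -0.06 beside -0.12 over all tested genes. On the deposited values without aligned medians, 4 genes were called higher in sg1-IRF2 cells, MT-ND2, MT-CO3, MT-ATP6 and MT-CYB (0.25, 0.21, 0.20 and 0.19), where the median of all tested genes was itself 0.11 and 1952 of them were called, or 13.3%.

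Untransduced cells had slightly lower values than cells with a guide, within the replicate spread. Both guides against untransduced cells had a median difference of 0.07, beside 0.01 over all tested genes, with 12 of 13 above 0 (2 of 13 without untransduced replicate 2). sgAAVS1 against untransduced cells had a median of 0.06, with 11 of 13 above 0. With medians aligned over all listed genes 2 of 13 were above 0, with a median of -0.04 beside -0.09 over all tested genes. The number above 0 was 1 of 13 without sgAAVS1 replicate 1 and 5 of 13 without untransduced replicate 2. It was also 5 of 13 with library size as a covariate, an alternative chosen after seeing the data. These comparisons share the untransduced libraries. MT-ATP6, the subunit of the proton channel of the ATP synthase, differed most in both. It had 7.30 and 7.27 in sg1-IRF2 cells, 7.18 and 7.21 in sg2-IRF2 cells, 7.34 and 7.13 in sgAAVS1 cells, and 7.22 and 7.02 in untransduced cells. Its differences were 0.12 ± 0.06 for both guides (adjusted p = 0.367) and 0.11 ± 0.07 for sgAAVS1 (adjusted p = 0.406, limma), with overlapping groups in each. None of the 13 genes was called in either comparison, beside 2.52% and 4.42% of tested genes called. None of the 13 had an unadjusted p under 0.05 either, beside 14.7% and 18.5% of all tested genes. Without sgAAVS1 replicate 2, 8 of the 13 genes were called higher in sgAAVS1 than in untransduced cells, from MT-ND2 at 0.18 to MT-CYB at 0.24 (limma), beside 9.14% of tested genes called in that fit.

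**Figure D3:**
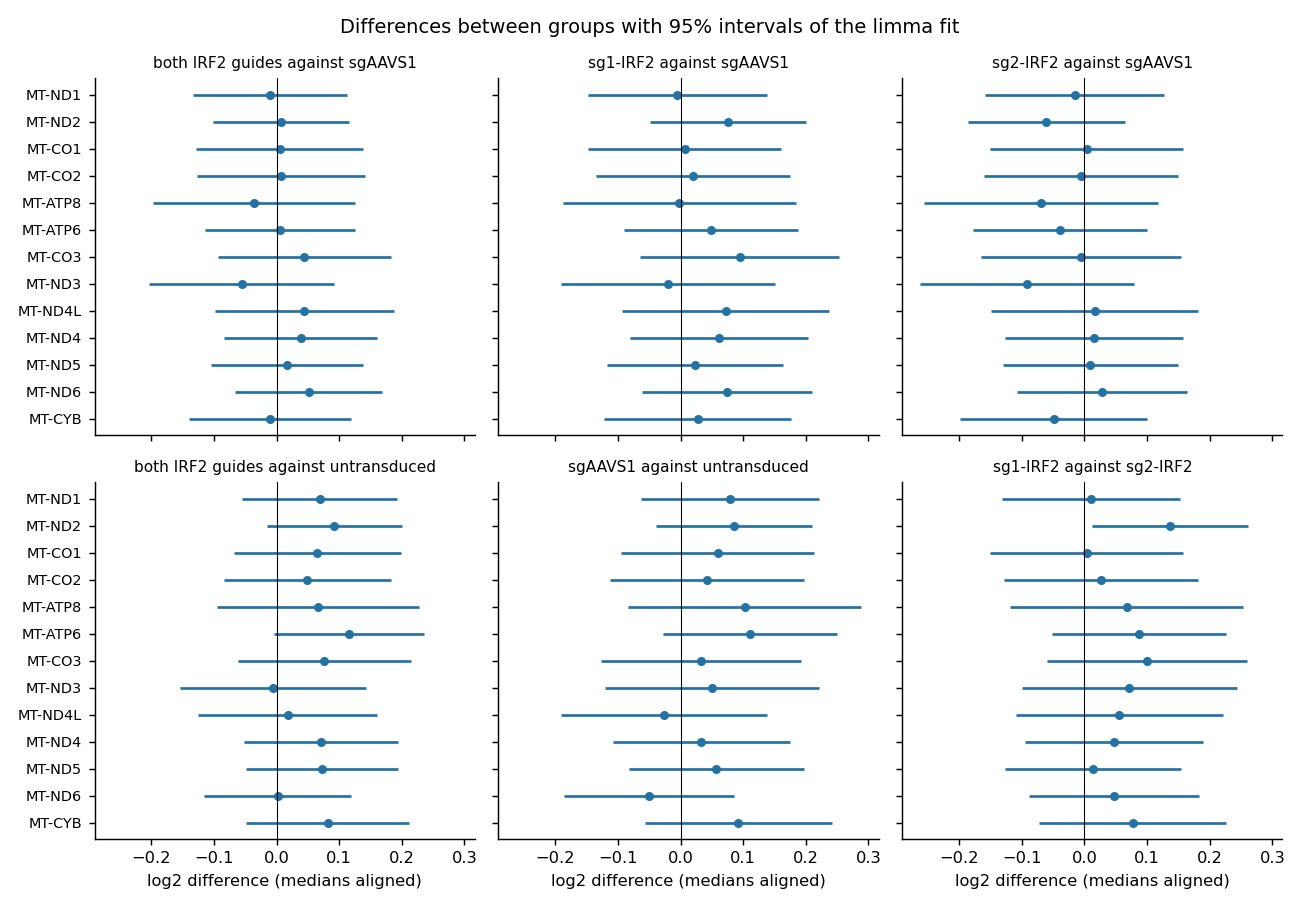
Log2 difference (horizontal axis, medians aligned) of each of the 13 genes (vertical axis) in each of 6 comparisons, as points with 95% intervals of the limma fit. Of the 78 intervals only that of MT-ND2 in sg1-IRF2 against sg2-IRF2 leaves out 0, and its adjusted p was 0.314.

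The depth of the libraries is set here beside the reads on these genes. The smallest library, sgAAVS1 replicate 1, and the largest, sgAAVS1 replicate 2, belong to the same group, and the second held 1.28 times the reads of the first but 1.09 times its reads on the 13 genes. Per base of the 13 genes together (11395 bases) the libraries held 1 to 1.14 reads. Among 11582 protein-coding genes ranked by reads per exonic base, the 13 genes all stood within the first 17. Only 4 nuclear genes reached the level of the lowest of them, the linker histone gene HIST1H1C (1.16), the ferritin light chain gene FTL (1.13), the fetal globin gene HBG2 (0.952) and the histone gene HIST1H2BK (0.930). The median nuclear gene had 0.0746 reads per exonic base and the 99th percentile was 0.393.

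Reads of such dense genes followed library size only in part. A slope of 1 for log2 reads on log2 library reads over the 8 libraries means that a gene keeps its share of the library. The slopes of the 13 genes had a median of 0.43 and ran from 0.29 to 0.86, with MT-ND6 the highest, whereas the median nuclear gene had 1.05. With any 1 library left out the median of the 13 genes was 0.39 to 0.48 and that of nuclear genes 1.03 to 1.06. Single genes moved more, the lowest slope to -0.0062 without sgAAVS1 replicate 1 and the highest to 1.05 without sgAAVS1 replicate 2. Nuclear genes showed lower slopes at higher density as well, with medians of 1.15 at 0.03 to 0.1, 0.97 at 0.1 to 0.2, 0.74 at 0.2 to 0.4 and 0.53 at 0.4 to 0.8 reads per base. HIST1H1C, FTL, HBG2 and HIST1H2BK had slopes of 0.29, 0.49, 0.28 and 0.38. The sources used here do not give whether duplicate reads were removed upstream, and the part of depth in the replicate gaps was not tested. Untransduced replicates 1 and 2 differed in the 13 genes at nearly equal library size (6303033 and 6320046 reads).

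**Figure D4:**
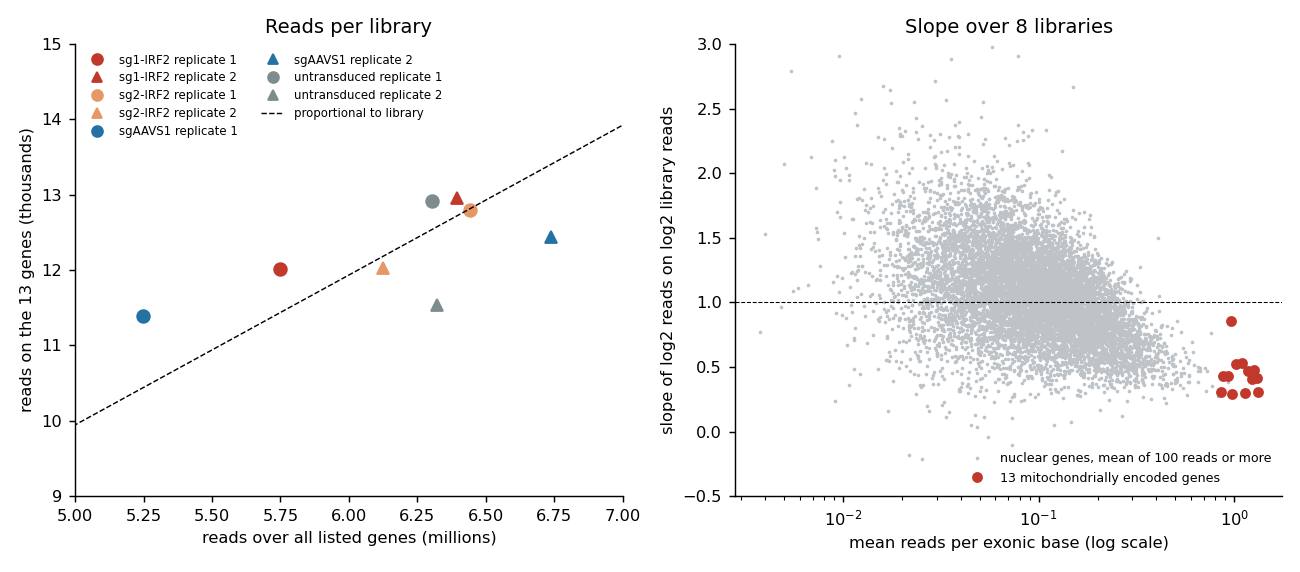
Left, reads on the 13 genes against reads over all listed genes, 1 point per library, with the line of equal share dashed. Right, slope of log2 reads on log2 library reads over the 8 libraries against mean reads per exonic base (log axis) for the 13 genes in red and 9214 nuclear genes with a mean of 100 reads or more in grey (2 of them outside the range shown); the 13 genes lie at the dense end with a median slope of 0.43.

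Nuclear genes for the same complexes shared the gap between the sgAAVS1 replicates but not that between the untransduced ones. Higher in sgAAVS1 replicate 1 were 35 of 37 nuclear subunit genes of complex I (median gap 0.16), 9 of 9 of complex III (0.19), 11 of 11 of complex IV (0.21) and 18 of 18 of the ATP synthase (0.19). So were 79 of 79 cytosolic ribosomal protein genes (0.24) and 67 of 77 mitochondrial ribosomal protein genes (0.11). Between the untransduced replicates the same lists had 12 of 37, 4 of 9, 5 of 11, 5 of 18, 41 of 79 and 29 of 77 genes higher in replicate 1, with medians from -0.04 to 0.00. There the 13 mitochondrially encoded genes had their gap of 0.17.

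None of the nuclear subunit genes of complexes I to IV and the ATP synthase (79 in all) was called in any of the 6 comparisons. The same held for the 79 cytosolic ribosomal protein genes. Of all tested genes 0.791% (sg1-IRF2 against sgAAVS1) to 4.42% (sgAAVS1 against untransduced) were called. In both guides against sgAAVS1 the medians of the respiratory lists lay between -0.01 and 0.01. Among 77 mitochondrial ribosomal protein genes, MRPL20 fell by 0.26 ± 0.06 on the log2 scale in this comparison (adjusted p = 0.0472, limma). That call was lost on leaving out any library but sgAAVS1 replicate 2, with adjusted p up to 0.227, while the difference stayed between -0.30 and -0.21. With no filter on low values the difference was -0.17 and not called, where the median over all tested genes was 0.09. At an unchanged -0.26 the call was also lost with array weights (adjusted p = 0.145, limma). The same held with the compared groups alone (adjusted p = 0.0895, limma). No gene was called in the lists for mitochondrial DNA replication and transcription (20 tested), RNA processing (35), translation factors and transfer RNA ligases (32), stress and quality control (14), biogenesis regulators (8) or structured and nuclear non-coding RNA (8).

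In the other comparisons 16 calls were made among these lists. All 16, and that of MRPL20 above, were lost once the mean-variance trend was left out of the fit. Of all tested genes 4.42% were called in sgAAVS1 against untransduced cells and 3.41% in sg2-IRF2 against sgAAVS1. With both guides against untransduced cells the share was 2.52%, and between the guides it was 1.58%. The list calls are given as a description beside these shares. ATF5, a transcription factor of the mitochondrial unfolded protein response, was higher in sg1-IRF2 than in sg2-IRF2 cells by 0.45 ± 0.06 (adjusted p = 3.5e-04, limma). The mean of both guides was higher than in untransduced cells by 0.35 ± 0.05 (adjusted p = 3.7e-04, limma). Neither guide alone was compared with untransduced cells. In the fits without 1 library ATF5 differed by 0.41 to 0.48 between the guides and by 0.31 to 0.38 from untransduced cells. It was also higher in sgAAVS1 than in untransduced cells by 0.34 ± 0.06 (adjusted p = 0.0018), a call lost without untransduced replicate 2 (adjusted p = 0.0632). Also higher in sgAAVS1 than in untransduced cells was PPARGC1B, a coactivator of mitochondrial biogenesis genes, by 0.27 ± 0.05 (adjusted p = 0.0033), lost without untransduced replicate 1 (adjusted p = 0.0897). The transfer RNA ligase genes AARS2 and EARS2, the helicase gene C10orf2 and the pseudouridine synthase gene PUS1 were higher there by 0.27, 0.22, 0.28 and 0.26, and each of these calls was lost in 3 to 7 of the 8 fits without 1 library. The differences changed less than the calls, with EARS2 at 0.21 to 0.24, PUS1 at 0.23 to 0.29, AARS2 at 0.20 to 0.33 and C10orf2 at 0.19 to 0.37 in those fits.

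In sg2-IRF2 against sgAAVS1, OMA1, a protease of the inner membrane, fell by 0.39, PUS1 by 0.27 and ATF5 by 0.22 on the log2 scale, and NEAT1, a nuclear non-coding RNA, rose by 0.26. NEAT1 was also lower in sg1-IRF2 than in sg2-IRF2 cells (-0.33). The NEAT1 values were 0.13 and -0.16 after quantile normalization, and the first was 0.14 and not called without sgAAVS1 replicate 2. With both guides against untransduced cells, MRPL20 fell by 0.25 on the log2 scale. All of these were lost in 3 to 6 of the 8 fits without 1 library (limma throughout), with OMA1 at -0.48 to -0.30, PUS1 at -0.34 to -0.19 and ATF5 at -0.24 to -0.20 in those fits. With no filter on low values, 16 of the 17 list calls were lost, since alignment and testing then ran over all listed genes.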

How the data were processed

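RNA was measured in 8 libraries of dCas9-KRAB K562 cells, 2 per group. Tools named are cutadapt and Bowtie2, and the build is hg38, per the submitters' processing notes. For versions, the counter, its strand setting, the annotation and any removal of duplicates, nothing is given in the sources used here. Each deposited value is a log2 of a gene's reads over a factor of its library, and a gene with no read stands at 0.9 read. In each library 100% of values above that were whole reads within 0.01 read, and these recovered reads were used for totals, shares, reads per base, slopes (log2 of reads + 0.5) and voom. No column belonged to a sample outside the series.

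Genes with a mean deposited log2 at or above 0 were tested, and library medians were aligned over them. Group means of all 8 libraries were fitted in R 4.3.3 by limma 3.58.1 (lmFit, contrasts.fit, eBayes with its trend option), two-sided, with Benjamini-Hochberg adjustment over all tested genes and calls at adjusted p under 0.05. Residual degrees of freedom were 4 and prior ones 14.9. Exonic lengths, positions and sequences came from GENCODE 29, which matched 83.7% of tested genes by name. All 13 genes are named, and of each nuclear list up to 3 called genes per comparison with the lowest p, except for 1 gene that is not reported here. Members and lists were chosen with earlier results of these data known. Alternatives covered normalization, filters, the model, the libraries fitted and each library left out.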

Additional observations from a re-analysis of the deposited data

How the results depend on the processing

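None of the 13 genes was called in any of the 6 comparisons with the values quantile normalized, medians aligned over genes of mean log2 at or above 4, a minimum of 2 or none, no mean-variance trend, array weights, voom, the compared groups alone, or the library size as a covariate (chosen after seeing the data). With a replicate block the counts were also 0 in all 6 comparisons. Over all tested genes, same-numbered libraries, which share only a number, did not deviate together (correlations of -0.039 to 0.063). Most of the 13 genes, however, were higher in replicate 1 in every group but sg2-IRF2. The numbers were 12 in sg1-IRF2, 6 in sg2-IRF2, 13 in sgAAVS1 and 13 in untransduced cells. Over 19 alternatives, 15 of 1482 gene values had an adjusted p under 0.05, all without 1 sgAAVS1 library or without alignment, and 188 changed sign, all of at most 0.10 in size in the fit reported. Without alignment 4 genes were called in sg1-IRF2 against sg2-IRF2. With no filter, where alignment runs over all listed genes, the median of sg2-IRF2 against sgAAVS1 was 0.14, beside 0.15 over all tested genes, and MT-ND3 turned to 0.057 there and to 0.033 for both guides. With each library left out, MT-ND3 ran from -0.21 to 0.092 (both guides) and from -0.24 to 0.057 (sg2-IRF2), MT-CO3 from -0.060 to 0.24 (sg1-IRF2), and MT-ND6 turned to -0.032 (both guides), the ends lying at fits without 1 sgAAVS1 library. The cause of these changes was not tested.

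With each library left out in turn, the number of genes called ran from 0 to 1 for both guides, for sg1-IRF2 and for sg2-IRF2 against sgAAVS1, from 0 to 8 for sgAAVS1 against untransduced, and stayed at 0 for both guides against untransduced and for sg1-IRF2 against sg2-IRF2. The medians ran from -0.12 to 0.13 (both guides against sgAAVS1), -0.11 to 0.16 (sg1-IRF2), -0.14 to 0.11 (sg2-IRF2), -0.02 to 0.16 (both guides against untransduced), -0.094 to 0.19 (sgAAVS1 against untransduced) and 0.02 to 0.08 (sg1-IRF2 against sg2-IRF2). The counts over all tested genes are given for all 19 alternatives, not only for the fits without 1 library. They ran from 59 to 753 around 208 for both guides against sgAAVS1, 49 to 706 around 116 for sg1-IRF2 and 60 to 1678 around 500 for sg2-IRF2. Against untransduced cells they ran from 47 to 1157 around 369 for both guides and 10 to 1695 around 648 for sgAAVS1. For sg1-IRF2 against sg2-IRF2 they ran from 4 to 1952 around 231. The lowest count came without the mean-variance trend in each comparison. An arm left with 1 library was assumed to vary like the other groups. Leaving out the mitochondrial ribosomal RNA genes was not run, since they were not analysed here. With 2 libraries a group, the standard errors of the 13 genes were 0.052 to 0.077 for both guides together and 0.060 to 0.089 between single groups.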

Other observations

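The listed MTRNR2L genes, nuclear genes that resemble mitochondrial sequence, took few reads. Nuclear copies of the messenger RNA genes described here were not examined. Of 12 listed MTRNR2L genes, which resemble the mitochondrial ribosomal RNA gene MT-RNR2, 1 was tested. MTRNR2L8 had 29 and 38 reads in sg1-IRF2 cells, 39 and 22 in sg2-IRF2 cells, 29 and 36 in sgAAVS1 cells, and 33 and 32 in untransduced cells. MTRNR2L12 had 19 reads over the 8 libraries. Reads of such genes cannot be told apart from those of the mitochondrial original where the sequences match.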
